A study of Rattus norvegicus with 24 samples.

Results

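The RNA levels of 10 genes of the circadian clock were followed in the nucleus accumbens (NAc) of rats: Arntl, Clock, Npas2, Per1, Per2, Per3, Cry1, Nr1d1, Nr1d2 and Dbp. The genes were chosen by their symbols, 10 of the 32545 genes listed, and all 10 passed the filter on low values in each comparison. RNA-seq values were held for 24 libraries, each from the NAc of 1 male Sprague Dawley rat aged 8 weeks on arrival, in 6 groups of 4. In the injection experiment, rats were given 5 intraperitoneal injections of LPS (lipopolysaccharide, a bacterial immune stimulant) at 250 µg/kg, or saline, and later 5 daily injections of heroin, rising from 1 to 5 mg/kg, or saline. LPS-Heroin, Saline-Heroin, LPS-Saline and Saline-Saline name the agents of these phases in order. The labels place death 1 h after the last injection, whereas the methods describe a short locomotor test after that injection and death up to 1 h after the test. In the self-administration (SA) experiment, rats with a jugular catheter took heroin at 0.075 mg/kg per infusion (Heroin-SA) or saline (Saline-SA) in 10 daily sessions of 6 h, and were killed directly after the last session. The methods of the study place the injected rats in pairs on a normal light/dark cycle and the SA rats alone on a reversed cycle. The clock time of tissue collection is not given in the sources used here. Light cycle, housing, surgery, route, dose and session therefore cannot be told apart from the experiment.

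The circadian clock is a transcriptional loop found in nearly every cell. ARNTL (also called BMAL1) pairs with CLOCK, or in the forebrain with NPAS2, and the pair activates genes that carry an E-box, among them the Per and Cry genes, Nr1d1, Nr1d2 and Dbp. PER and CRY proteins return to the nucleus and block that activity, while the nuclear receptors REV-ERBα (Nr1d1) and REV-ERBβ (Nr1d2) repress Arntl and Npas2 at ROR elements. DBP is an output factor that activates genes with a D-box, Per genes among them. In rodent tissues the RNA of Arntl therefore peaks at about the opposite time of day to that of Nr1d1 and Dbp. Per1 is also induced quickly by neuronal activity, as immediate early genes are.

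Of the 10 genes, 9 were matched to promoters from RefSeq (rat assembly GRCr8), which run from 250 bases before to 50 after an annotated start. They gave 11 windows, with more than 1 start for Clock and Nr1d1, and Arntl is listed there as Bmal1. The letters of 4 motifs were searched on both strands. The ROR element, searched as AA, any base and then TAGGTCA, was found in the Arntl window and in 0.245% of all 33469 promoters. The D-box TTATGNAA was found in the Per2 window and in 3.66% of promoters, and the E-box CACGTG in 1 of the Nr1d1 windows and in 6.42%. The cyclic AMP response element TGACGTCA was in none of the 11 windows and in 1.83% of promoters. The 250 bases before the start are shown for the 3 windows with a match. They run 5′ to 3′ on the gene's strand, with the motif in capitals. The 3 motifs shown are those named above for the loop, and each was found in 1 of the 9 genes. The matches begin, counted from the start site, at -19 in Arntl (chr1:176766078-176766327, plus strand), at -192 in Per2 (chr9:99496994-99497243, minus strand) and at -191 in Nr1d1 (chr10:84229455-84229704, minus strand).
Arntl: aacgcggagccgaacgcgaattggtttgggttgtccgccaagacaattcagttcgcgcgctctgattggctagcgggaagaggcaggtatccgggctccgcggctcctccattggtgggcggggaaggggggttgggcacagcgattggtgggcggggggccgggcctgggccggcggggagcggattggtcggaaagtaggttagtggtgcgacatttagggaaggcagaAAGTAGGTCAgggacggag
Per2: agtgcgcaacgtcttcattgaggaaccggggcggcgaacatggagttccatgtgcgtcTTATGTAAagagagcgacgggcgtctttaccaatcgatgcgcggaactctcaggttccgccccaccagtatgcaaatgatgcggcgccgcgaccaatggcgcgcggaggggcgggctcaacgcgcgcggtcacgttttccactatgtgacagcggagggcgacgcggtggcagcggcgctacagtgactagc
Nr1d1: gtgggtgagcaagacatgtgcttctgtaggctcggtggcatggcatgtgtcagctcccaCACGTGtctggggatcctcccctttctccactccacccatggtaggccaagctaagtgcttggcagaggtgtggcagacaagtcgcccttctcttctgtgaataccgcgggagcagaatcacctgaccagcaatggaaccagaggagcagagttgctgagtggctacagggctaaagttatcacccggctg
These matches describe the letters of the windows, and binding was not measured.

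The deposited values are FPKM, fragments scaled by gene length and by library size, so levels can be set side by side between genes. The library sizes that the values imply were 0.940 to 1.012 times the reads on genes in SA libraries. In injection libraries they were 0.996 to 1.048 times. Some lay below the reads on genes, so they were not plain totals of mapped reads. How they were set is not stated in the sources used here. Libraries held 12312878 to 18850240 reads on genes. Across the 24 libraries Dbp had the highest mean level of the 10 genes, 128 FPKM, followed by Nr1d1 at 33.98, Per1 at 30.1, Npas2 at 28.7, Nr1d2 at 28.5, Per3 at 17.6, Per2 at 13.6, Arntl at 11.8, Clock at 10.0 and Cry1 at 8.43 FPKM. Cry1 rested on the fewest reads, 246 to 588 per library, and Dbp on the most, 1762 to 4577. Within groups Dbp varied most, with an SD of 0.34 on the log2 scale, and Clock least, with 0.10, beside a median SD of 0.20 over all genes. In the coordinates of the deposited table (rn6), Arntl lies on chromosome 1 from 178039063 to 178137465, Per1 on chromosome 10 from 55687050 to 55695994 and Npas2 on chromosome 9 from 45901741 to 46081880. Nr1d1, on the minus strand of chromosome 10 from 86683875 to 86690815, overlaps Thra on the other strand, whose mean was 196 FPKM. Whether strand was used in the counting is not stated, so values of Nr1d1 are uncertain, whereas the other 9 genes overlapped no listed gene.

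Some features of the libraries moved with the groups. Mitochondrial genes took 6.82 to 9.10% of the reads in injection libraries and 10.0 to 15.9% in SA libraries, with the highest shares in Saline-SA 3 and 4. All 10 markers of medium spiny neurons, the main cell type of the NAc, were detected, with summed levels of 1230 to 2500 FPKM over the injection libraries and 1910 to 3270 FPKM over the SA libraries. One Saline-Saline library held 329 summed FPKM of choroid plexus markers, against at most 32 in any other library.

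The first comparison set the 8 SA libraries against the 16 injection libraries, as the mean of the 2 SA group means less the mean of the 4 injection group means. Npas2, Arntl and Per3 were higher in SA rats and Per1 and Nr1d2 were lower, 5 of 10 clock genes called at an adjusted p under 0.05 (limma, Benjamini-Hochberg over 15118 genes). Over all genes, 48.4% were called in this comparison and 54.2% had an unadjusted p under 0.05, so the share of clock genes called was close to that of all genes. The median log2 difference was 0.12 over the 10 genes and 0.00 over all genes. Differences below are on the scale of log2(FPKM + 0.1), with limma's standard error (SE).

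**Figure D1:**
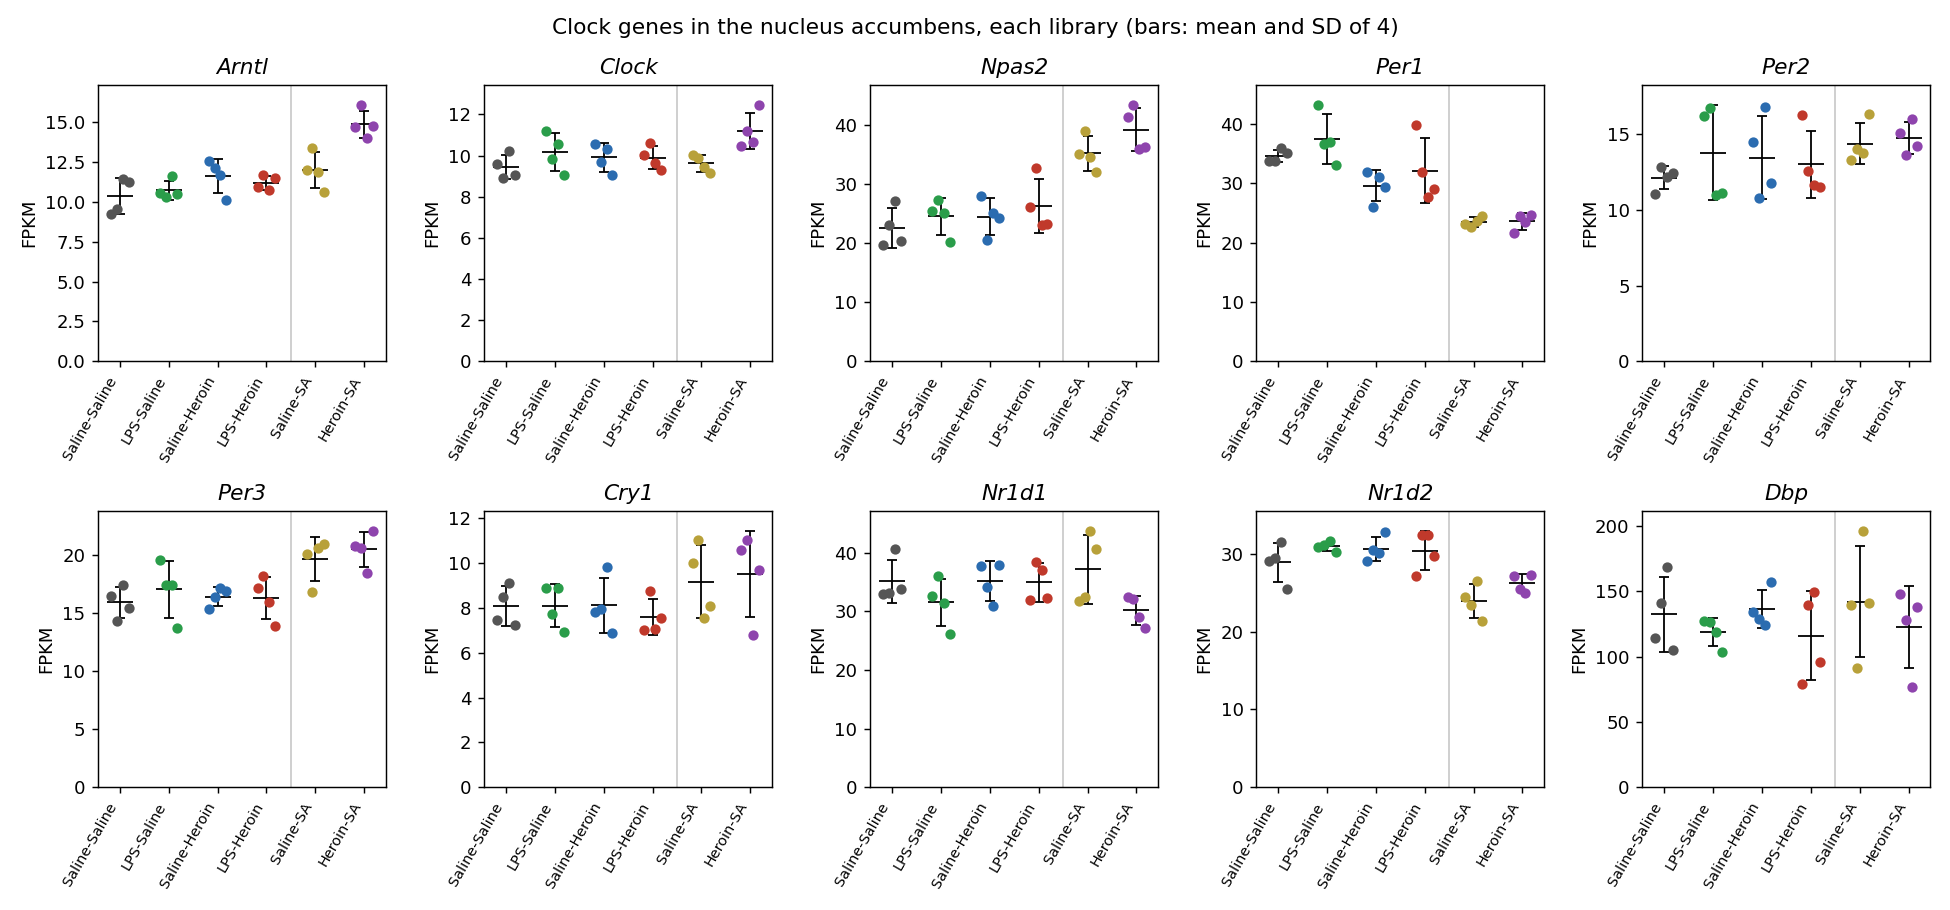
Levels of the 10 clock genes in FPKM (y axis, from 0) in the 6 groups (x axis). Each point is 1 library, the long bar is the mean and the whiskers are the SD of 4 libraries. Per1 lies between 21.7 and 24.6 FPKM in the 8 SA libraries and between 26.0 and 43.1 FPKM in the 16 injection libraries.

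Npas2, the forebrain partner of ARNTL, showed the largest difference of the 10 genes. Its levels were 35.2, 39.0, 34.6 and 32.0 FPKM in Saline-SA and 41.3, 43.3, 35.9 and 36.4 FPKM in Heroin-SA. The 16 injection libraries ran from 19.8 to 32.8 FPKM with a median of 24.7. Only the highest injection library, in LPS-Heroin, reached into the SA range. The log2 difference was 0.61 (SE 0.08, adjusted p = 1.38e-06), or 1.52-fold higher.

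Arntl, which encodes the obligate partner in both pairs, was 0.28 higher on the log2 scale (SE 0.05, adjusted p = 0.000137). It ran from 10.6 to 16.02 FPKM with a median of 13.7 in the SA libraries, and from 9.23 to 12.6 with a median of 11.1 in the injection libraries. The experiments overlapped, and the 4 highest libraries were those of Heroin-SA. Clock, the other partner, had a median of 10.3 FPKM in SA and 9.77 FPKM in injection libraries, and its difference of 0.08 (SE 0.05, adjusted p = 0.198) did not pass.

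The members of the repressing arm did not move in 1 direction. Per1 was 0.50 lower on the log2 scale (SE 0.06, adjusted p = 5.2e-07), or 1.41-fold lower. Its values were 23.1, 22.6, 23.6 and 24.4 FPKM in Saline-SA and 21.7, 24.5, 23.4 and 24.6 FPKM in Heroin-SA. No SA library reached the lowest injection library, at 26.0 FPKM. Per1 was the only one of the 10 genes whose experiments did not overlap, as was so for 7.18% of all genes. Per3 was 0.29 higher (SE 0.06, adjusted p = 0.000575), with a median of 20.6 FPKM in SA and 16.7 FPKM in injection libraries. The differences of Per2, 0.17 (SE 0.09, adjusted p = 0.135), and of Cry1, 0.21 (SE 0.09, adjusted p = 0.0595), did not pass. Per2, Cry1 and Clock were also called as higher with the medians of all libraries made equal. The same held with the FPKM divided by the nuclear share of reads in each library. That division kept the deposited library size, which was lowest against the reads on genes where the mitochondrial share was highest. It is therefore not a plain library size of nuclear reads. Over all 36 alternatives Cry1 was called in 10 and Per2 and Clock in 3 each. Cry1 was among the calls without Heroin-SA 3, LPS-Heroin 2, Saline-Heroin 3, Saline-SA 3, Saline-SA 4 or Saline-Saline 3, at differences of 0.23 to 0.29.

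Of the REV-ERB receptors, Nr1d2 was 0.27 lower on the log2 scale (SE 0.04, adjusted p = 3.75e-05). It ran from 21.3 to 27.3 FPKM in the SA libraries and from 25.5 to 32.8 FPKM in the injection libraries. Nr1d1 had medians of 32.2 and 33.4 FPKM, and its log2 difference of -0.03 had a 95% interval from -0.17 to 0.11. Dbp had medians of 139 FPKM in SA and 127 FPKM in injection libraries, with a log2 difference of 0.05 and an interval from -0.24 to 0.34.

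**Figure D2:**
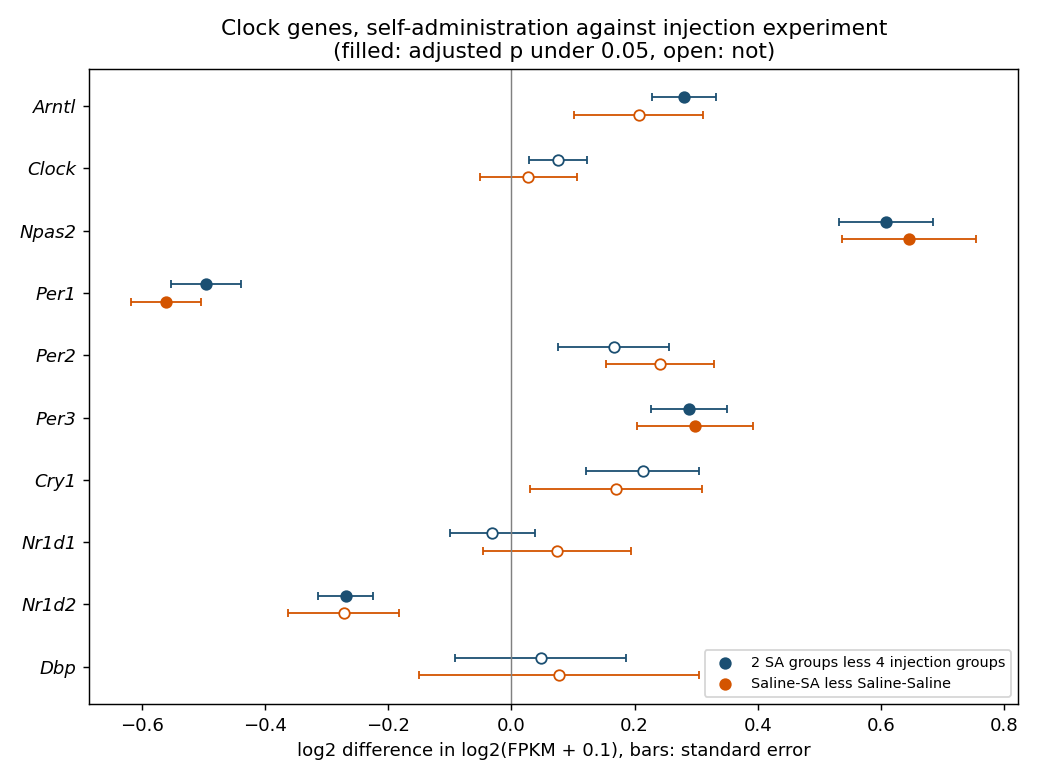
Log2 differences of the 10 clock genes (x axis, on the scale of log2(FPKM + 0.1)) between the SA groups and the injection groups, and between Saline-SA and Saline-Saline. Points are limma estimates, bars are 1 SE, and filled points have an adjusted p under 0.05. Npas2 at 0.61 and Per1 at -0.50 lie farthest from 0 in the comparison of the experiments.

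Lists of markers moved in the same comparison, tested only on the FPKM as deposited. Of 10 medium spiny neuron markers, 8 were called as higher in SA rats (median log2 difference 0.47), and 6 of 6 astrocyte, 5 of 6 oligodendrocyte and 4 of 6 microglia markers as lower. In bulk tissue, fewer cells of a type and less RNA per cell cannot be told apart. With the medium spiny neuron list as a covariate, Npas2 was 0.46, Arntl 0.21 and Per3 0.25 higher, and Per1 was 0.46 and Nr1d2 0.41 lower on the log2 scale, with all 5 still called. Summed astrocyte markers were 415 to 560 FPKM over SA and 513 to 740 FPKM over injection libraries. Of 13 immediate early genes tested, 9 were called as lower in SA rats (median -0.52), and Per1 moved with them. The part of these lists in the differences of the clock genes was otherwise not tested.

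Saline-SA and Saline-Saline are the control groups of the experiments, neither of which received heroin or LPS. Npas2 was 0.65 higher (SE 0.11, adjusted p = 0.00412), Per3 0.30 higher (SE 0.09, adjusted p = 0.0486) and Per1 0.56 lower (SE 0.06, adjusted p = 0.000426) in Saline-SA on the log2 scale. These 3 of 10 clock genes stand beside 23.7% of all 15150 genes called. At an unadjusted p under 0.05 there were 5, with Per2 and Nr1d2, beside 37% of all genes. Per1 was 33.8, 33.7, 35.8 and 35.0 FPKM in Saline-Saline, far above the 22.6 to 24.4 FPKM of Saline-SA. Npas2 was 19.8, 23.1, 27.1 and 20.4 FPKM in Saline-Saline, below every Saline-SA library. Groups did not overlap for Npas2, Per1 and Per2, each with an exact permutation p of 0.029, the smallest that 4 against 4 allows, and 28.3% of all genes had groups without overlap. Per2 was 11.0 to 12.8 FPKM in Saline-Saline and 13.3 to 16.3 FPKM in Saline-SA, with a log2 difference of 0.24 that did not pass (adjusted p = 0.0789). Nr1d2 missed the threshold too, at -0.27 (adjusted p = 0.0578).

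The call of Per3 in the control groups was fragile. It was lost without Saline-SA 1, 3 or 4 or without Saline-Saline 1, 2 or 4, with adjusted p-values of up to 0.118. In the alternatives other than leaving out 1 library, the limma adjusted p reached 0.247. Per3 was called in 11 of 21 alternatives, whereas Per1 and Npas2 were called in all 21. Without both Saline-SA 3 and 4, Npas2 was 0.72 higher and Per1 0.60 lower.

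The opposed arms were also set against each other within libraries, as the log2 level of Arntl less that of Nr1d1. Among injected rats it was -1.63 ± 0.14 (SD, n = 4) in LPS-Heroin, -1.59 ± 0.22 in Saline-Heroin, -1.54 ± 0.21 in LPS-Saline and -1.75 ± 0.12 in Saline-Saline. In SA rats it was -1.62 ± 0.33 in Saline-SA and -1.02 ± 0.11 in Heroin-SA. The 4 Heroin-SA libraries, from -1.14 to -0.88, lay above all 20 others, which ran from -1.93 to -1.27, while the mean of Saline-SA lay among those of the injection groups. Saline-SA 3 and 4, which had the highest mitochondrial shares, were at -1.87 and -1.93, and Saline-SA 1 and 2 were at -1.40 and -1.27, the latter above all injection libraries. The mean of Arntl, Clock and Npas2 less the mean of Nr1d1, Nr1d2 and Dbp was -1.28 ± 0.14 in Heroin-SA, -1.63 ± 0.30 in Saline-SA and between -1.96 and -1.78 in the injection groups. On this measure the SA groups overlapped, since Saline-SA 2 at -1.25 lay above Heroin-SA 1 at -1.45 and Heroin-SA 4 at -1.31 and level with Heroin-SA 2 at -1.25. These are descriptive values. They carry the doubt on Nr1d1 given above, and were formed with the values of the single genes known.

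Heroin was compared with saline first in self-administering rats. Arntl, Clock and Npas2 were each higher on average in Heroin-SA than in Saline-SA, but 0 of 10 clock genes passed in limma, as was so for 0% of all 15024 genes, and limma-voom on the recovered reads called 0 as well. At an unadjusted p under 0.05 there were 3 clock genes, Arntl, Clock and Nr1d1, beside 11.5% of all genes. Arntl was 14.6, 16.02, 14 and 14.7 FPKM in Heroin-SA and 12.01, 13.4, 11.8 and 10.6 FPKM in Saline-SA. Each Heroin-SA library was above each Saline-SA library. The log2 difference was 0.31 (SE 0.09, adjusted p = 0.338) and the exact permutation p was 0.029, the smallest possible.

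Clock was 10.5, 11.2, 10.7 and 12.4 FPKM in Heroin-SA and 10.0, 9.86, 9.46 and 9.14 FPKM in Saline-SA. The groups did not overlap here either, with a log2 difference of 0.21 (SE 0.08, adjusted p = 0.402) and an exact permutation p of 0.029. Arntl and Clock were 2 of 10 genes with groups apart, beside 6.80% of all genes. Npas2 did not pass at either threshold, with a difference of 0.15 and a 95% interval from -0.05 to 0.35.

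Nr1d1, a repressor of Arntl, was 32.4, 32.1, 28.9 and 27.2 FPKM in Heroin-SA and 31.8, 32.4, 43.6 and 40.7 FPKM in Saline-SA. The groups overlapped, and the high values were those of Saline-SA 3 and 4, the libraries with the highest mitochondrial shares. The difference of -0.29 (SE 0.12, adjusted p = 0.410, exact permutation p = 0.114) was -0.09 without these 2 libraries, while that of Arntl was 0.23 and that of Clock 0.17. Nr1d2 had a difference of 0.14, opposite in sign to that of Nr1d1. Dbp differed by -0.20 with a 95% interval from -0.78 to 0.38, and the level was 77.1 to 148 FPKM in Heroin-SA and 91.4 to 196 FPKM in Saline-SA. The Per genes and Cry1 differed by 0.01 to 0.06 on the log2 scale, with the widest interval, -0.36 to 0.45, for Cry1.

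In the same comparison both cold-inducible RNA-binding genes had an unadjusted p under 0.05, Cirbp at -0.65 and Rbm3 at -0.77 on the log2 scale, neither called. Heat shock genes went the other way, with 3 of 7 higher at that threshold (median 0.44) and 0 called. Of 13 immediate early genes, 8 were lower at that threshold (median -0.43), with 0 called, whereas Per1 differed by 0.01. Over all 15024 genes, 925 were higher and 800 lower at that threshold. Medium spiny neuron markers had a median difference of -0.02, with none of 10 at that threshold. The difference of Arntl was 0.31 and that of Clock 0.21 with these neuronal markers as a covariate. The part of the cold-inducible, heat shock and immediate early genes was not tested.

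**Figure D3:**
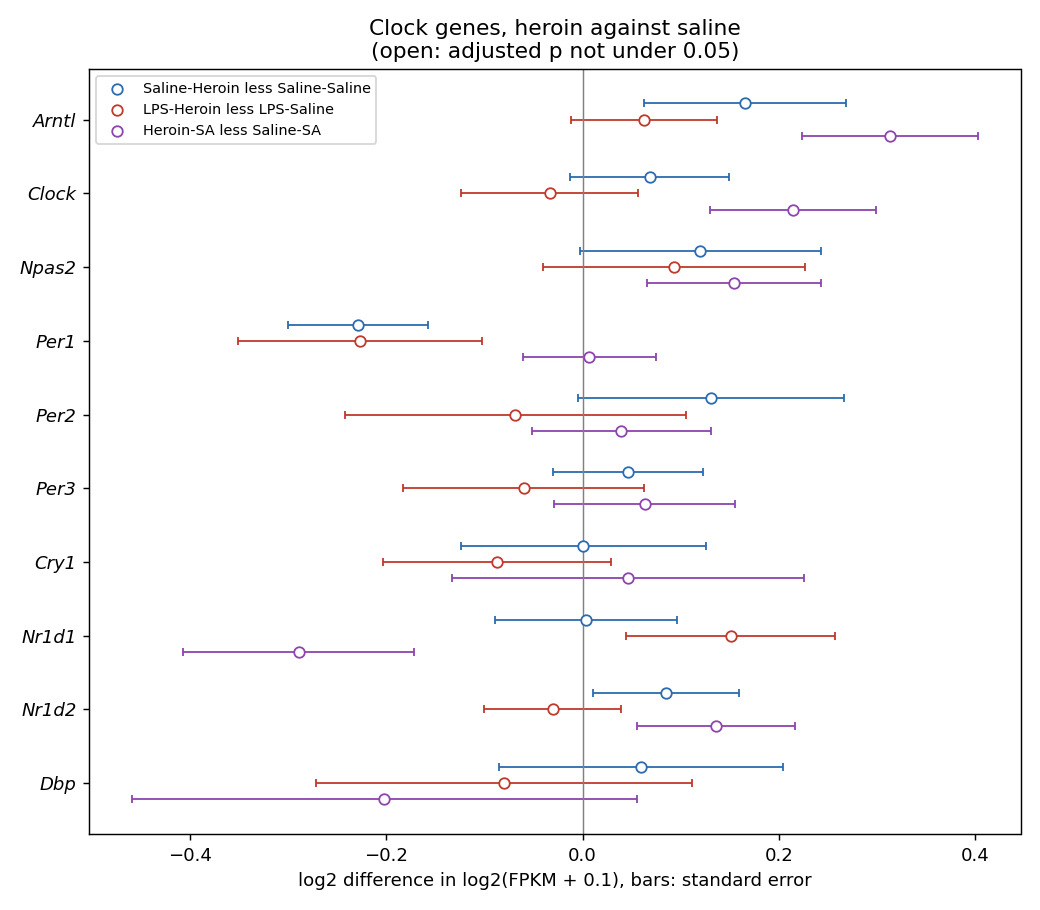
Log2 differences of the 10 clock genes (x axis, on the scale of log2(FPKM + 0.1)) between heroin and saline in injected rats without LPS, injected rats after LPS, and self-administering rats. Points are limma estimates and bars 1 SE, and all points are open because none had an adjusted p under 0.05. Per1 lies at -0.23 in both injected comparisons and at 0.01 in self-administering rats.

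Injected heroin was compared with injected saline with and without earlier LPS. In none of these comparisons was a clock gene called by limma-trend or by limma-voom, and 0% of all genes were called in each. Per1 was the 1 clock gene at an unadjusted p under 0.05 without LPS, beside 6.57% of all genes. It was 31.9, 26.0, 31.0 and 29.4 FPKM in Saline-Heroin, and the lowest Saline-Saline library was at 33.7 FPKM, so the groups did not overlap. That held for 1 of 10 clock genes and 3.39% of all genes. The log2 difference was -0.23 (SE 0.07, adjusted p = 0.750), with an exact permutation p of 0.029. After LPS, Per1 was 39.8, 31.9, 27.7 and 28.9 FPKM in LPS-Heroin and 43.1, 36.6, 36.9 and 33.0 FPKM in LPS-Saline. Here the groups overlapped, and the difference was again -0.23 (SE 0.12, adjusted p = 0.977, exact permutation p = 0.171). No clock gene passed that threshold or had groups apart after LPS, beside 4.6% and 2.58% of all genes.

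Over all 16 injected rats the heroin difference of Per1 was -0.23 (SE 0.07, adjusted p = 0.547), the only clock gene at an unadjusted p under 0.05 beside 8.11% of all genes. Its LPS by heroin interaction was 0.00 (SE 0.15, 95% interval -0.31 to 0.32). The heroin difference of Per1 in SA rats less that in injected rats without LPS was 0.24 (SE 0.09, adjusted p = 0.721) and did not pass. It was the only clock gene at an unadjusted p under 0.05 there, beside 6.55% of all genes. Dose, route and time since heroin differed between these. Among immediate early genes, 10 of 13 were lower with injected heroin at an unadjusted p under 0.05 (median -0.63, none called), with Fos at -0.96 and Arc at -1.24. The other 9 clock genes had heroin differences of -0.04 to 0.11 on the log2 scale over the injected rats.

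Earlier LPS also left no clock gene called. Over the 16 injected rats the LPS differences ran from -0.20 for Dbp, with a 95% interval from -0.48 to 0.07, to 0.11 for Npas2 and Per1. None reached an unadjusted p under 0.05, beside 6.67% of all genes. For the comparisons of LPS-Saline and of LPS-Heroin with Saline-Saline, which share the Saline-Saline rats with that of Saline-Heroin, no clock gene reached an unadjusted p under 0.05, beside 6.63% and 11.3% of all genes. None had groups apart either, beside 4.11% and 6.86%. Per1 was 0.11 higher in LPS-Saline and 0.12 lower in LPS-Heroin than in Saline-Saline, with 95% intervals that both hold 0. LPS-Heroin against Saline-Heroin gave no clock gene either at that threshold, beside 4.21% of all genes, and none with groups apart, beside 2.37%. Its differences lay between -0.27 for Dbp and 0.11 for Per1. The interaction was not called for any clock gene, and 0% of all genes were called. At an unadjusted p under 0.05 it again held no clock gene, beside 4.02% of all genes. Its widest interval, for Dbp, ran from -0.69 to 0.41.

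The order of the group means can be read from these levels. Arntl was highest in Heroin-SA at 14.85 ± 0.85 FPKM (SD, n = 4), followed by Saline-SA at 11.96 ± 1.1, Saline-Heroin at 11.6 ± 1.1, LPS-Heroin at 11.2 ± 0.4, LPS-Saline at 10.7 ± 0.6 and Saline-Saline at 10.4 ± 1.1 FPKM. Only the top neighbours in that order had values that did not overlap. Per1 ran, from high to low, from LPS-Saline at 37.4 ± 4.2, Saline-Saline at 34.6 ± 1.0, LPS-Heroin at 32.1 ± 5.5, Saline-Heroin at 29.6 ± 2.6 and Heroin-SA at 23.6 ± 1.4 to Saline-SA at 23.4 ± 0.8 FPKM. Its neighbours overlapped except Saline-Heroin and Heroin-SA. For the other 8 genes all neighbours in the order overlapped, although the means of Npas2 in Saline-SA and LPS-Heroin, 35.2 and 26.3 FPKM, were further apart than both SDs together.

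In injected rats, 2 of 45 pairs of clock genes passed a test of varying together among rats of the same group. Deviations from the group mean were correlated over the 16 injection libraries and the 8 SA libraries for all 45 pairs, 90 relations in all, with a permutation of libraries within groups that was exact over all orders. Nr1d2 and Dbp, both targets of the ARNTL pairs, correlated with Pearson's r = 0.888 (permutation p = 0.000316, adjusted p = 0.0285) and Spearman's rho = 0.882 (permutation p = 0.000307, adjusted p = 0.0277) in injected rats. Without the 2 libraries farthest from the median, r was 0.842. Nr1d1 and Dbp had r = 0.742 (permutation p = 0.000723, adjusted p = 0.0326) and rho = 0.765 (permutation p = 0.00269, adjusted p = 0.0855), and r was 0.707 without the 2 farthest libraries. The rank correlation of that pair thus did not pass.

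Per1 and Per2 had r = 0.749 (permutation p = 0.00401, adjusted p = 0.120) and did not pass. In the 16 injection libraries 38 of 45 pairs had a positive r (median 0.33), also between members of opposed arms, and in the 8 SA libraries 24 of 45 (median 0.05), with no pair passing. The smallest p among SA pairs was that of Arntl and Npas2 at r = 0.869 (permutation p = 0.0122, adjusted p = 0.167), and Per3 and Dbp had r = 0.874 (permutation p = 0.0243, adjusted p = 0.219), which dropped to 0.0744 without the 2 farthest libraries. Over the 16 injection libraries, medium spiny neuron markers had r = 0.719 with Dbp and 0.771 with Nr1d2, and immediate early genes had r = 0.782 with Per1. The medium spiny neuron list had r = 0.422 with Nr1d1, 0.266 with Arntl, -0.162 with Per1 and -0.324 with Per2. Other lists moved with single genes too, choroid plexus markers with Dbp (r = -0.629) and Nr1d1 (-0.595), heat shock genes with Nr1d1 (-0.605), cortical glutamatergic markers with Per2 (0.671) and oligodendrocyte markers with Arntl (-0.742). With the neuronal list held constant r was 0.753 for Nr1d2 and Dbp and 0.696 for Nr1d1 and Dbp. With the immediate early genes held constant r was 0.576 for Per1 and Per2. Immediate early genes also had r = -0.563 with Nr1d2 and -0.44 with Dbp. Septum and ventral forebrain markers had r = -0.525 with Dbp. Neither of these lists was held constant for Nr1d2 and Dbp. Further lists were held constant after the data had been seen. With the choroid plexus list r was 0.924 for Nr1d2 and Dbp and 0.589 for Nr1d1 and Dbp, with heat shock genes 0.701 for the latter pair, and with cortical markers 0.759 for Per1 and Per2.

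**Figure D4:**
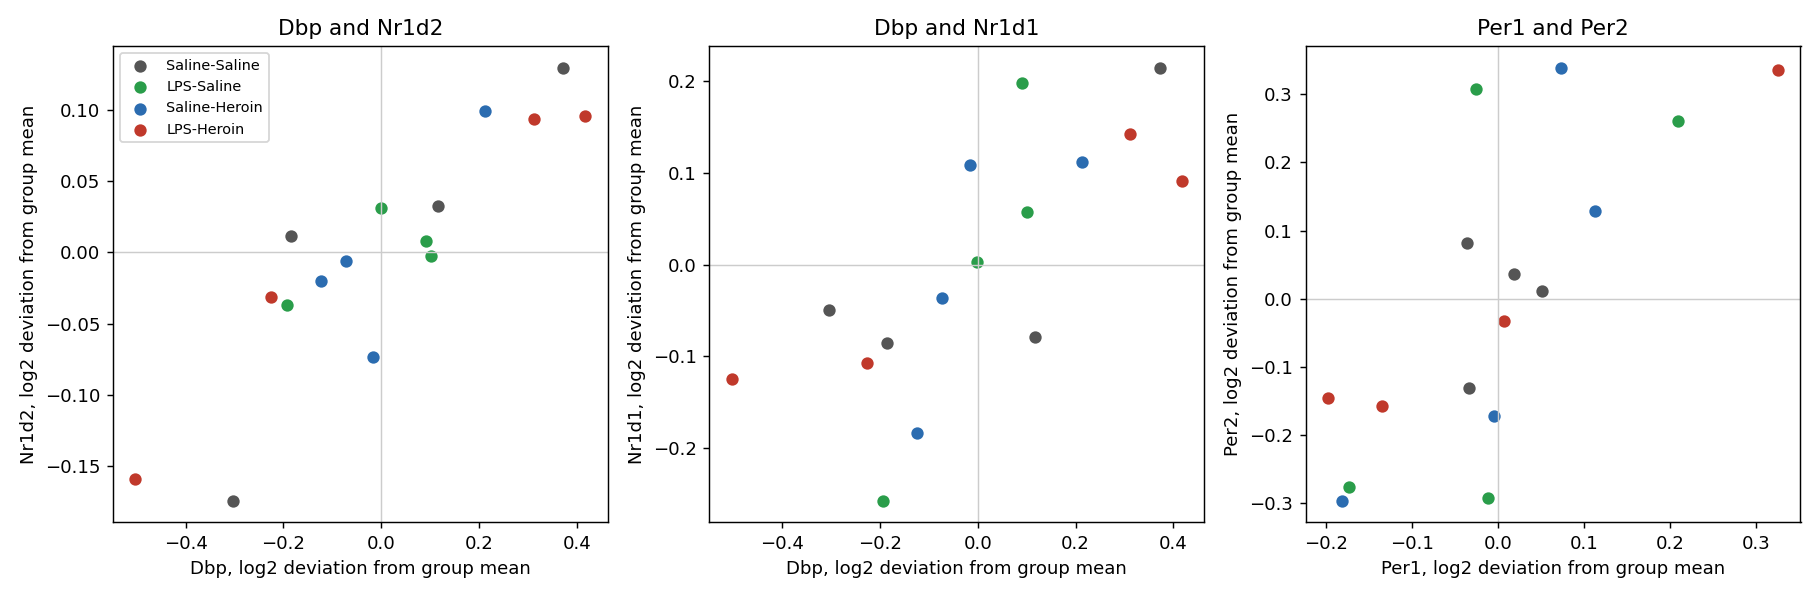
Deviations of single libraries from their group mean, in log2 units on both axes, for Dbp and Nr1d2, Dbp and Nr1d1, and Per1 and Per2 in the 16 libraries of the injection experiment. Each point is 1 library, coloured by group. The points of all 4 groups run upward together, with Pearson's r of 0.888, 0.742 and 0.749.

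Other parts of the clock machinery were followed in a list of 22 symbols, of which 18 passed the filter. In SA rats against injected rats 1 was higher and 10 were lower, and the median difference was -0.23. Over all genes 23.9% were called as higher and 24.5% as lower. The 18 genes were tested only on the FPKM as deposited, not under other scalings. Mitochondrial genes took 10 to 15.9% of reads in SA libraries and 6.82 to 9.1% in injection libraries. In Saline-SA 3, with the highest share, the implied library size was also the lowest against the reads on genes, at 0.940 times. The part of mitochondrial reads and of library size in the lower calls was not tested, so the smaller differences are uncertain. Among the ROR receptors, which activate Arntl at the same element, Rorb was 1.86 FPKM in Heroin-SA and 1.57 FPKM in Saline-SA, against 3.03 to 3.68 FPKM in the injection groups. Its log2 difference was -0.86 (SE 0.13, adjusted p = 1.28e-05), whereas that of Rora, at under 1 FPKM, was -0.49 and did not pass the test. The PAR bZIP factors, relatives of DBP, differed in sign. Hlf was 0.70 lower (SE 0.12, adjusted p = 8.37e-05), with 21.2 and 16.9 FPKM in the SA groups and 28.0 to 32.9 FPKM in the injection groups. Tef was 0.30 higher (SE 0.05, adjusted p = 0.00013), with 130 FPKM in Heroin-SA.

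Among further repressors, Ciart was 0.50, Bhlhe40 0.48, Bhlhe41 0.32 and Cry2 0.22 lower in SA rats on the log2 scale. Cry2, the paralogue of Cry1, was 32.8 ± 2.9 FPKM (SD, n = 4) in Saline-SA and 37.2 ± 2.0 FPKM in Saline-Saline. Nampt, an enzyme of NAD synthesis and an output of the clock, was 0.49 lower, with 10.6 and 11.8 FPKM in the SA groups and 15.1 to 16.3 FPKM in the injection groups. The ubiquitin ligase subunits Btrc and Fbxw11, which target PER proteins, were 0.28 and 0.19 lower, and the deubiquitinase Usp2 was 0.24 lower. The kinases of PER, Csnk1d and Csnk1e, differed by -0.03 and -0.01, within their error. Between the control groups, 6 of the 18 were lower and none higher, beside 13.9% and 9.8% of all genes. Heroin-SA against Saline-SA gave no call among 17 tested, with Fbxw11 at 0.27 (adjusted p = 0.338) and Tef at 0.24 (adjusted p = 0.402). With injected heroin none of the 18 was called. At an unadjusted p under 0.05, 2 were higher and 1 lower, beside 8.11% of all genes. These included Usp2 at 0.33 and Nfil3, a repressor at D-boxes, at -0.37, and the limma adjusted p was 0.547 for both.

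**Figure D5:**
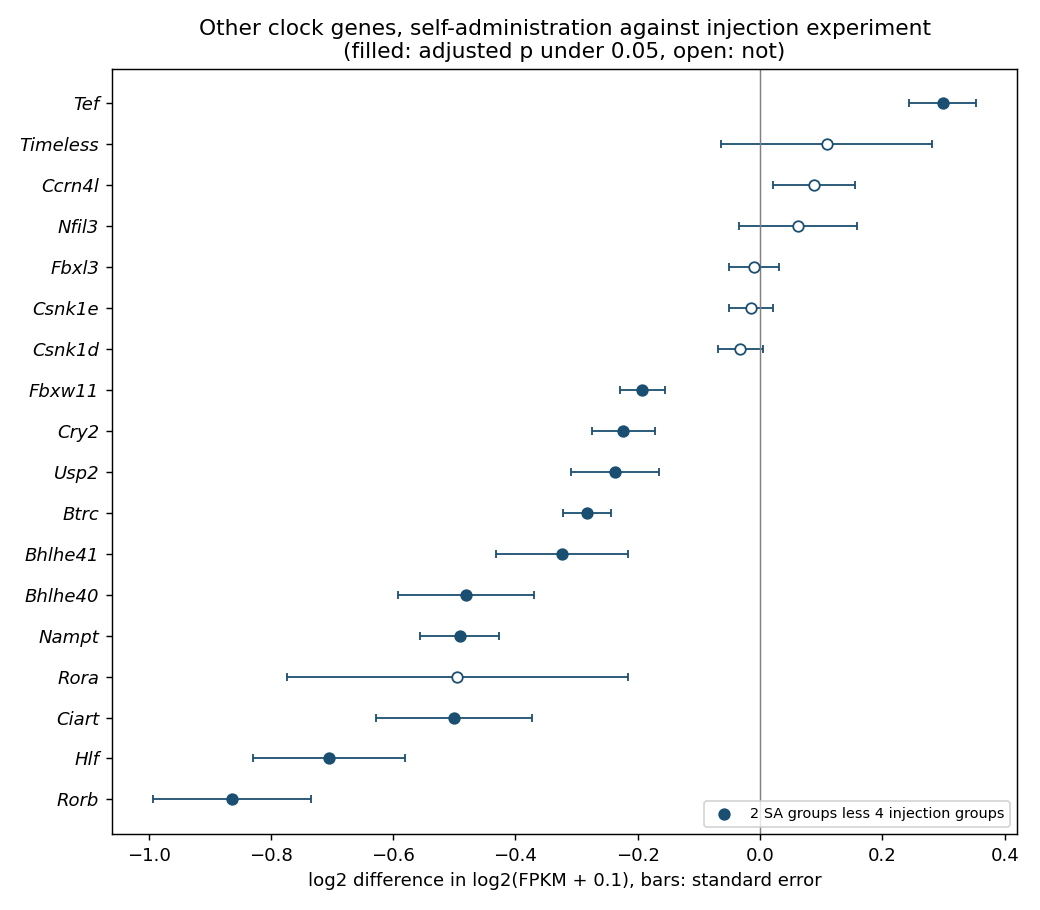
Log2 differences (x axis, on the scale of log2(FPKM + 0.1)) of 18 other clock genes between the SA groups and the injection groups. Points are limma estimates, bars are 1 SE, and filled points have an adjusted p under 0.05. Tef at 0.30 is the only filled point above 0, and 10 filled points lie between -0.86 and -0.19.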

How the data were processed

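RNA of the NAc was sequenced in 24 libraries, 4 rats per group, and groups were taken from the labels. Per the labels and the methods of the study, directional polyA libraries were made from 300 ng of RNA and sequenced in pairs of reads. Reads were trimmed with fastp, aligned to rn6 with HISAT2 and counted with featureCounts, whose versions are not given in the sources used here. The authors deposited FPKM values for 32545 genes. To recover reads, FPKM times gene length was divided by the smallest nonzero product of each library, taken as a single read. This gave whole reads for 100% of nonzero values (tolerance 0.001). The methods state 6 sequenced samples per group and the labels 4, and 4 were analysed here. The labels place a week between LPS and heroin, the methods 4 days.

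Each comparison was fitted with limma 3.58.1 (R 4.3.3, limma-trend) on log2(FPKM + 0.1) keeping genes whose mean FPKM was at least 0.5 in the libraries fitted, so fold changes of low genes are understated. There were 12 comparisons, each called at a Benjamini-Hochberg adjusted p under 0.05 over all genes, two-sided. Pairs of groups were fitted on their 8 libraries alone, effects and the interaction within the injection experiment on its 16 libraries, the difference of heroin effects on 16 libraries of 4 groups, and the experiments on all 24. Single genes were also compared by exact permutation of the 8 libraries, two-sided. Correlations and permutations over pairs of genes were computed with numpy 2.4.6, with ranks from scipy 1.17.1. All 10 genes were named in every comparison, other clock genes by whether they passed, and genes most like Dbp or Arntl by the 5 highest Pearson r, of which 1 gene is not reported here. The members and lists were chosen with earlier results of these data known. Lists were other clock genes, immediate early genes, glucocorticoid response, cold-inducible, heat shock, and markers of microglia, astrocytes, oligodendrocytes, endothelium, choroid plexus, medium spiny neurons, septum and ventral forebrain, and cortical glutamatergic neurons. Promoter sequences were read from RefSeq tables of GRCr8. Alternatives were other pseudocounts (1 and 0.01), filters (none and a mean FPKM of 1), scalings, all libraries in one fit, robust moderation, the replicate number as a block, limma-voom on the recovered reads, and leaving out each library. The fit was first checked on reads simulated with 50 changed genes per fold. For Heroin-SA against Saline-SA, 18% of 1.25-fold and 62% of 1.5-fold changes were called over 15113 genes. Larger changes were missed too, with 66% of 2-fold and 64% of 4-fold changes called. For the SA groups against the injection groups, 72%, 92%, 96% and 96% of these folds were called over 15127 genes. In each of these comparisons 9 unchanged genes were called.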

Additional observations from a re-analysis of the deposited data

Results flagged for a closer look

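Each clock gene was checked for a library apart from the other 3 of its group, 60 groups in all, by the gap to the nearest library over the range of the group (Dixon's test at the 95% level). In 1 group a library stood apart. Nr1d1 was 40.53 FPKM in Saline-Saline 3 and 32.91 to 33.74 FPKM in the other 3, a gap of 0.891 of the range. Chance sets apart about 1 in 20 groups, so 1 of 60 is below that number.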

How the results depend on the processing

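Across 289 of 291 alternatives to the counts of clock genes called, the count remained within 1.5 times the main one. The exceptions were the SA groups against the injection groups, with equal medians and with the FPKM divided by the nuclear share of reads. These each called 8 of 10 in place of 5, adding Clock, Per2 and Cry1. The division by the nuclear share of reads, the medium spiny neuron covariate and leaving out Saline-SA 3 and 4 together were chosen after seeing the data. Leaving out each library gave 5 to 6 clock genes for that comparison, 2 to 3 for Saline-SA against Saline-Saline and 0 for the other 10 comparisons. Of 2910 values of single genes under alternatives, 2875 kept their direction if called and their side of the threshold, 10 lost a call, 25 gained one and 0 were reversed, while 176 values that were not called changed sign. The 10 lost calls were those of Per3 between the control groups, where Nr1d2 was called in 6 of 21 alternatives. The share of calls over all genes that were higher moved with the scaling. For the experiments it went from 49.4% to 60.2% with equal medians, 60.4% after division by the nuclear share and 41.7% with limma-voom. For the control groups it went from 41.4% to 56.4%, 57.9% and 28.4%, in the same order. Heroin-SA against Saline-SA gave 69 calls over all genes with all 24 libraries in one fit and 0 in the 8 alone, none a clock gene. The same replicate numbers occur in each group, but deviations of same-numbered libraries correlated at only -0.133 to 0.168, so the numbers were not taken to pair the rats. With the replicate block, 4 clock genes were called between the control groups (Nr1d2 added), 5 between the experiments and 0 in the other 10 comparisons. Depth limits Cry1 most, and groups of 4 give an exact p of at least 0.029.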

Other observations

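The genes whose log2 levels were most like those of Dbp within groups, over 24 deviations from group means and 13853 genes compared, were Sqrdl (Pearson's r = 0.789), Rabl6 (0.780), Vps39 (0.778), Htr6 (0.759) and RGD1563441 (0.743). None is in the lists of clock genes. For Arntl they included SCARNA18 (0.841), Khdrbs2 (0.815), Srsf7 (0.787) and Ppp4r4 (0.773). Over the 24 libraries with group differences left in, the genes most like Arntl were AABR07015081.1 (0.840), L3mbtl3 (0.832), Lgalsl (0.830), Etnk1 (0.824) and Josd1 (0.819), and those most like Dbp were RGD1563441 (0.739), Grk4 (0.682), Vps39 (0.668), Nova1 (0.664) and Gpbp1l1 (0.657). These are the highest of many values and carry no test.

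Among the remaining lists, 7 of 12 table entries of glucocorticoid response genes were called as lower and 2 as higher in SA rats against injected rats (median log2 difference -0.30), with Fkbp5 at 0.37 and Sgk1 at -0.67. Cirbp was 0.48 and Rbm3 0.44 lower, both called. Of 7 heat shock genes 2 were called as higher (median 0.06), of 6 cortical glutamatergic markers 1 as lower (median -0.38), of 6 septum and ventral forebrain markers 2 as lower (median -0.67), of 3 choroid plexus markers none (median -0.47) and of 5 endothelial markers 3 as higher (median 0.33).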
